A study of Homo sapiens with 6 samples.

Results

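The myoepithelial contractile genes described here are 10 genes of the smooth muscle type contractile apparatus: the actins ACTA2 and ACTG2, the myosin genes MYH11, MYL9 and MYLK, the thin filament proteins CNN1, TAGLN, TPM1 and TPM2, and the oxytocin receptor OXTR. They were taken by symbol, as all gene probes whose gene name on the array was one of these symbols. This gave 17 probes, each printed as 1 spot, among 34127 gene probes carrying 25940 gene names, and 6 of the 10 genes had more than 1 probe. RNA came from pLUM and pLB, lines purified from xenografts of T47Dco, a subline of the human luminal breast cancer line T47D, which the labels name as the parental line; the xenografts had been grown in ovariectomized immunodeficient mice, with 3 sorts of each line on 3 arrays. pLUM, the pure luminal line, was derived from a tumor of an E (estradiol) treated mouse and sorted as CLD3+ CD49f-. It was cultured with E for about 2 months before the first sort and about 2 months after it, and was then maintained in E. For the arrays it was treated with 1 nM E for 72 h. pLB, the pure luminobasal line, was derived from a tumor of a mouse given E plus P (progesterone) and sorted as CLD3- CD49f+. It was kept under EWD, that is, with E withdrawn, for about 2.5 months before the first sort and about 2 months after it, and was then maintained so. Cells of both lines were then fixed, stained for CK5 and sorted again before RNA was extracted, and which CK5 fraction was hybridized is not given in the sources used here. Each line came from a single tumor and had its own hormone state, so that line, tumor and hormone cannot be told apart on these 6 arrays. In bulk RNA, fewer cells of a type and less RNA per cell cannot be told apart either.

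Myoepithelial cells form the outer, basal layer of mammary ducts and lobules, and contract to eject milk when oxytocin from the pituitary binds OXTR. OXTR acts through a G protein and phospholipase C to release calcium, which with calmodulin activates myosin light chain kinase, encoded by MYLK; the kinase phosphorylates the regulatory light chain, and myosin then pulls on actin filaments. Transcription of many of these genes in muscle is driven by serum response factor, SRF, which binds a DNA element called the CArG box together with coactivators of the myocardin family that are held in the cytoplasm by unpolymerized actin.

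Signals were compared on the log2 scale after division by the 75th percentile of the gene spots on the same array, so that 0 is the brightness of that percentile and each unit is a doubling; a level can be compared between arrays but not between probes. A probe was tested if the scanner software flagged it as well above background on 3 or more of the 6 arrays. A probe was called with limma when the lines differed at least 2-fold and the adjusted p (Benjamini-Hochberg, over all 23105 probes tested) was under 0.05. The lines differed widely. Pearson's r across tested probes was 0.984 to 0.991 between pLUM arrays, 0.972 to 0.989 between pLB arrays and 0.780 to 0.806 between lines, where the points are probes and not independent samples. All 3 pLUM arrays and pLB replicate 1 lay on slide 1, whereas pLB replicates 2 and 3 lay on slide 2. With 3 arrays a line, the smallest two-sided p of an exact permutation test is 0.1, and nothing in the labels shows that the triplicate sorts were separate cultures, so that p-values measure the spread between these sorts.

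The contractile genes split between the lines. With each gene represented by its tested probe of highest mean, ACTA2, ACTG2, CNN1, MYL9, MYH11 and TPM2 were called higher in pLB, TAGLN was called lower, and MYLK, TPM1 and OXTR were not called. Thus 6 of 10 genes were called higher, where 22.7% of all 17670 genes tested were, and 1 of 10 was called lower, where 23.0% of all genes were. The median log2 fold change (pLB over pLUM) of the 10 genes was 1.12, with ACTG2 and CNN1 either at their fitted values or at the lower bounds given below, and that of all genes tested was 0.03. By probe, 7 of 15 tested probes were called higher (21.9% of all probes), 2 lower (23.7% of all probes) and 6 not called, and the other 2 were not well above background on any array. The 3 pLUM and 3 pLB values did not overlap for 13 of the 15 probes, as for 68.1% of all probes. Of all genes called, 49.6% were higher in pLB. When each array was scaled on its spiked-in control transcripts, which raised all genes in pLB by a median of 0.25 on the log2 scale, 60.1% of called genes were higher, and so were 8 members, with MYLK and TPM1 added, against 1 lower. ACTA2, ACTG2, CNN1 and MYH11 passed the filter through the pLB arrays, where they were brighter, so that the count of genes higher is not independent of the filter. Among genes well above background on all 6 arrays, 6 members were tested, of which 2, MYL9 and TPM2, were called higher and 1, TAGLN, lower. Under this filter 3038 of all genes were called higher and 3029 lower, so that 50.1% of called genes were higher.

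**Figure D1:**
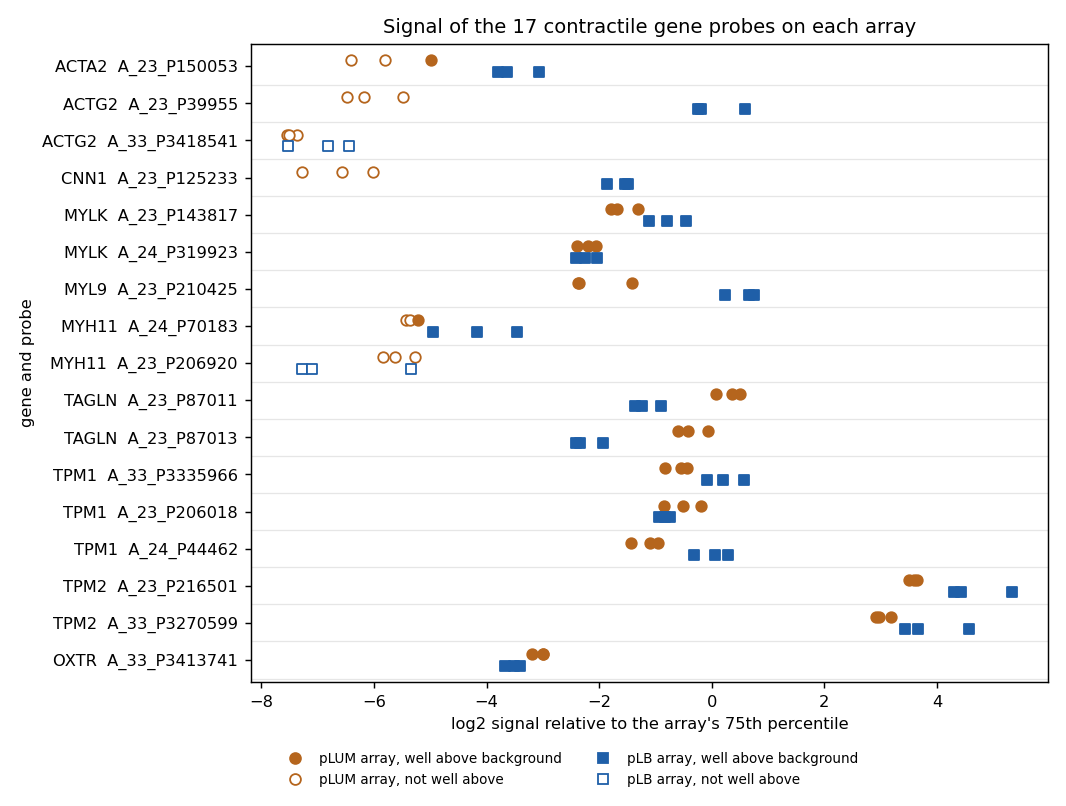
Log2 signal relative to the array's 75th percentile (x axis) of each contractile gene probe (y axis) on the 3 pLUM arrays (circles) and 3 pLB arrays (squares). Open symbols are spots not well above background. ACTG2 and CNN1 have open pLUM and filled pLB symbols, and both TAGLN probes lie further left in pLB.

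ACTA2 encodes alpha smooth muscle actin, the actin by which myoepithelial cells are usually recognized in tissue. It had 1 probe, on chromosome 10 of hg19 from 90697899 to 90697958, minus strand, shown here because actin coding sequences are much alike.
ACTA2 probe A_23_P150053: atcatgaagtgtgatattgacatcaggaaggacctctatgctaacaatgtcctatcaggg
Its log2 signal was -5.80, -6.40 and -4.99 in replicates 1, 2 and 3 of pLUM, and -3.07, -3.64 and -3.80 in those of pLB. All pLB arrays were above all pLUM arrays, but the gene was dim, and among the pLUM arrays only replicate 3 was well above background. The difference was 4.68-fold (log2 fold change 2.23 with a standard error of 0.38, limma adjusted p = 0.00162). With another background correction, the normexp method, the log2 fold change was only 0.16 and the call was lost (limma adjusted p = 0.72). Normexp was run with an offset of 50 intensity units added to every spot, which by itself shrinks the fold changes of dim probes. The deposited ACTA2 intensities were 6.64 to 17.8 in pLUM and 32.2 to 104 in pLB, and the part of the offset in the lost call was not tested. Among the other actins, the cytoplasmic ACTG1 was also called higher in pLB, by 2.28 on the log2 scale, whereas the cytoplasmic ACTB (0.99) and the skeletal ACTA1 (-0.46) were not called and the cardiac ACTC1 was not well above background on any array. Whether RNA of another actin bound the ACTA2 probe was not tested.

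ACTG2 encodes gamma smooth muscle actin, the actin of visceral smooth muscle, and was called higher in pLB. Its probe for the full transcript (chromosome 2 of hg19, 74146700 to 74146759, plus strand) gave -6.49, -5.49 and -6.17 in replicates 1, 2 and 3 of pLUM, and 0.60, -0.25 and -0.19 in those of pLB. No pLUM array showed it well above background, and it reached about the 75th percentile of the array on every pLB array. The increase in pLB was at least 43.1-fold for ACTG2 (limma adjusted p = 7.26e-06). This lower bound sets the pLB mean against the detection limit of each pLUM array, which is the dimmest signal called well above background there, or against the ACTG2 signal itself where that is brighter. A further ACTG2 probe, which lies upstream and was designed to a cDNA clone, was not well above background on any of the 6 arrays.

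CNN1 encodes calponin 1, an actin-binding protein of differentiated smooth muscle that restrains the myosin ATPase. Its probe (chromosome 19 of hg19, 11661005 to 11661064, plus strand) gave -7.28, -6.57 and -6.03 on the pLUM arrays, none of them well above background, and -1.86, -1.55 and -1.49 on the pLB arrays. CNN1 was thus seen on the pLB arrays and not above background in pLUM. The increase in pLB was at least 13.4-fold (limma adjusted p = 1.42e-05). With normexp the fitted log2 changes fell from 6.10 to 2.78 for ACTG2 and from 4.99 to 1.43 for CNN1, and both calls were kept.

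MYL9 encodes the regulatory light chain of smooth muscle and nonmuscle myosin, which is phosphorylated when the cell contracts. Its probe (chromosome 20 of hg19, 35177541 to 35177600, plus strand) was well above background on all arrays, so that its change is measured on both sides.
MYL9 probe A_23_P210425: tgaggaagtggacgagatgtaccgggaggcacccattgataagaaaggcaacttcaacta
The signal was -2.35, -2.38 and -1.42 in pLUM and 0.66, 0.75 and 0.23 in pLB for replicates 1, 2 and 3. Replicate 3 was the highest of pLUM and the lowest of pLB, and still the lines did not overlap. The increase in pLB was 6.05-fold (log2 fold change 2.60 with a standard error of 0.30, limma adjusted p = 0.000253). This call held in all 18 alternative analyses in which the probe was tested, with log2 fold changes from 1.93 to 2.91.

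MYH11 encodes smooth muscle myosin heavy chain, the motor protein of smooth muscle. Its 2 probes share 17 bases, in capitals, and lie on chromosome 16 of hg19, minus strand. One is contiguous (15797909 to 15797968), and the other joins stretches separated by 10785 bases.
MYH11 probe A_24_P70183: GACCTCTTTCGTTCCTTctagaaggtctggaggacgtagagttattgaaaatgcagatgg
MYH11 probe A_23_P206920: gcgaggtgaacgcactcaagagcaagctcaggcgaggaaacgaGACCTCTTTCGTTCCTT
The junction probe was not well above background on any array. The other gave -5.43, -5.36 and -5.22 in pLUM, where only replicate 3 was well above background, and -4.96, -4.17 and -3.46 in pLB, where all arrays were. pLB was higher on every array, but near the detection limit. The fitted difference was 2.20-fold (log2 fold change 1.14 with a standard error of 0.36, limma adjusted p = 0.0255). The call was lost or turned in 8 of 17 alternatives: without pLUM replicate 1 (1.09), 2 (1.13) or 3 (1.20), without pLB replicate 2 (1.13) or 3 (0.77), by the methods' t-test (1.14), when slide was a block (0.38), and with normexp, where the sign turned (-0.20).

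MYLK, the gene of the calcium-dependent kinase that phosphorylates MYL9, was well above background on all 6 arrays by both of its probes. Which of its transcripts the probes read was not examined, so that the full-length kinase transcript is not shown to be present. Its upstream probe (chromosome 3 of hg19, 123333074 to 123333133, minus strand) gave -1.80, -1.68 and -1.32 in pLUM and -0.79, -1.11 and -0.46 in pLB. The values did not overlap, but the difference of 1.75-fold was under the fold threshold (log2 fold change 0.81 with a standard error of 0.23, limma adjusted p = 0.0166). With the spike-in scaling it passed that threshold at 1.07. The MYLK probe nearer the 3′ end gave -2.06, -2.20 and -2.40 in pLUM and -2.24, -2.40 and -2.04 in pLB. Those values overlapped fully, and the log2 fold change was -0.01, with a 95% interval from -0.43 to 0.41. The difference between these probes was not tested.

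TAGLN, which encodes the actin-binding protein transgelin (SM22), was the one member called lower in pLB. Both its probes on chromosome 11 of hg19 fell. One is contiguous in the genome (117075155 to 117075214, plus strand) and the other joins stretches separated by 330 bases (117074574 to 117074963), and the latter is shown because a match across the junction reads spliced RNA.
TAGLN probe A_23_P87013: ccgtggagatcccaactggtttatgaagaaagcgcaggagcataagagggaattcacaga
The junction probe gave -0.42, -0.60 and -0.06 in pLUM and -2.35, -2.42 and -1.93 in pLB. The contiguous probe gave 0.36, 0.08 and 0.50 in pLUM and -1.36, -1.23 and -0.90 in pLB. On both probes all 3 pLB arrays were below all 3 pLUM arrays. TAGLN was 3.66-fold lower in pLB by the junction probe (log2 fold change -1.87 with a standard error of 0.22, limma adjusted p = 0.000257) and 2.79-fold lower by the other (log2 fold change -1.48 with a standard error of 0.20, limma adjusted p = 0.000516). The calls of both probes held in all 18 alternatives, with log2 fold changes from -2.02 to -1.22. Of its relatives, TAGLN2, the widely expressed form, was not called (0.39, limma adjusted p = 0.44).

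TPM1 encodes the alpha tropomyosins, which wind along actin filaments and are made in smooth muscle, striated muscle and nonmuscle forms through alternative exons. Of its 3 probes on chromosome 15 of hg19, a pair shares 26 bases, in capitals, and so partly reads the same RNA.
TPM1 probe A_33_P3335966: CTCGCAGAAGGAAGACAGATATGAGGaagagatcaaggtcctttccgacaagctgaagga
TPM1 probe A_24_P44462: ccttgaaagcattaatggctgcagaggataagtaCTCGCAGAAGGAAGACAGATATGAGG
The first of these gave -0.83, -0.44 and -0.55 in pLUM and 0.20, -0.09 and 0.57 in pLB. The second, which joins stretches separated by 941 bases, gave -1.43, -1.10 and -0.95 in pLUM and 0.06, -0.32 and 0.30 in pLB. Both were higher on every pLB array. The second was called higher, by 2.25-fold (log2 fold change 1.17 with a standard error of 0.22, limma adjusted p = 0.00291), whereas the first, at 1.78-fold, stayed under the fold threshold (log2 fold change 0.83, limma adjusted p = 0.0128). The third probe lies further downstream, from 63363361 to 63363420, and was designed to another transcript form. It gave -0.85, -0.51 and -0.19 in pLUM and -0.84, -0.94 and -0.75 in pLB, which overlap, and its log2 fold change was -0.33 with a 95% interval from -0.81 to 0.16. Whether the TPM1 forms differ in their change was not tested.

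TPM2 encodes beta tropomyosin and had 2 tested probes. The probe of higher mean, which represents the gene, gave 3.51, 3.59 and 3.64 in pLUM and 4.42, 4.30 and 5.33 in pLB, and the other gave 2.92, 2.97 and 3.18 in pLUM and 3.67, 3.44 and 4.57 in pLB. On both, pLB replicate 3 stood above the other pLB arrays. The first probe was called higher, by 2.15-fold (log2 fold change 1.10 with a standard error of 0.29, limma adjusted p = 0.0118). The other was under the fold threshold at 1.83-fold (limma adjusted p = 0.0379). Without pLB replicate 3 the first probe also fell under it (log2 fold change 0.78), as it did after quantile normalization (0.84). Its adjusted p rose to 0.11 when slide was a block (0.84) and to 0.052 by the methods' t-test.

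OXTR, the receptor through which oxytocin makes myoepithelial cells contract, was dim but well above background on all 6 arrays. Its probe (chromosome 3 of hg19, 8792128 to 8792187, minus strand) gave -2.99, -3.19 and -3.00 in pLUM and -3.40, -3.52 and -3.66 in pLB. The pLB values were all slightly lower. The difference of 1.38-fold was under the fold threshold (log2 fold change -0.47 with a standard error of 0.16, limma adjusted p = 0.0373), with a 95% interval from -0.85 to -0.09.

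**Figure D2:**
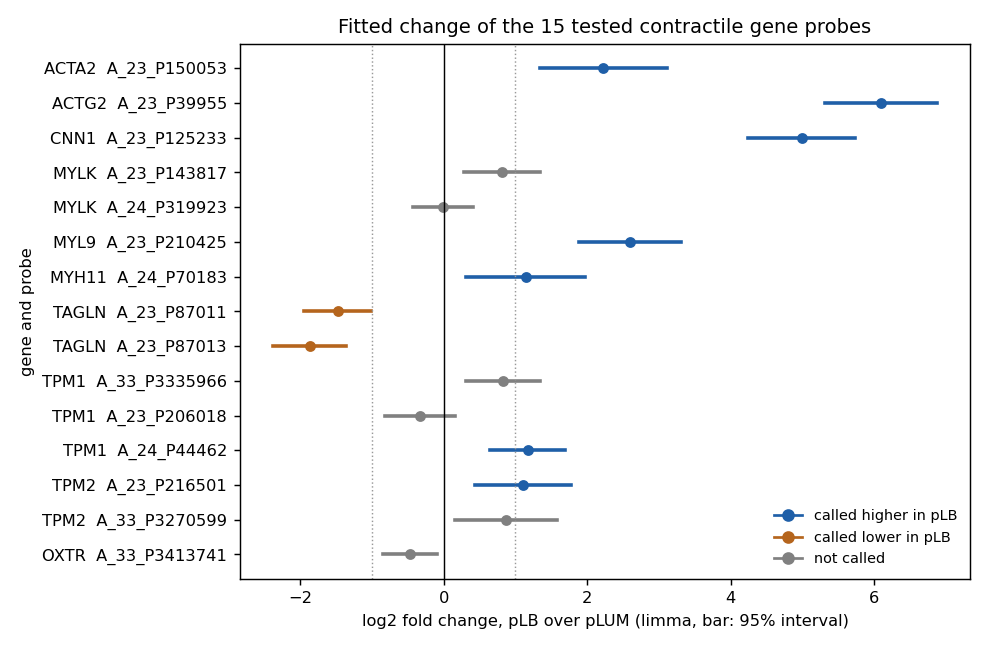
Fitted log2 fold change of pLB over pLUM (x axis) of the 15 tested contractile gene probes (y axis), with 95% intervals from limma as bars and dotted lines at 2-fold in each direction. Colors mark probes called higher, called lower and not called. The intervals of ACTG2 and CNN1 lie far to the right, those of both TAGLN probes to the left, and the MYLK and TPM1 probes differ among themselves.

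The nonmuscle actomyosin genes, which build the contractile and stress fiber cytoskeleton of all cells, were compared from a list of 23 genes, all detected on every array. In pLB 12 were called higher (22.7% of all genes), and their median log2 fold change was 1.54, against 1.12 for the contractile genes and 0.03 for all genes. The largest increases were those of TPM4, a short nonmuscle tropomyosin, at 31.7-fold, ACTN1, which cross-links actin, at 14.2-fold, CNN2, the nonmuscle calponin, at 9.73-fold, and CALD1, the actin-binding caldesmon, at 8.14-fold. TPM4, for example, was at -4.29, -4.04 and -4.28 in pLUM and at 0.52, 0.96 and 0.88 in pLB. Probes of the same gene could disagree: the probes of MYH14, a nonmuscle myosin heavy chain, gave log2 fold changes of 0.69 and -1.82, and the 6 tested probes of TPM3, a nonmuscle tropomyosin, ranged from -1.45 to 1.17.

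Other smooth muscle genes were called in each direction at shares not far from those of all genes. Of 18 listed, 11 were tested and 7, among them the actin nucleator LMOD1, the desmin-linked SYNM, the integrin ITGA8 and the calcium pump regulator PLN, were not well above background on any array. In pLB 3 of the 11 were called higher, where 22.7% of all genes were, and 4 lower, where 23.0% were, and the median log2 fold change was 0.37. TGFB1I1, a focal adhesion protein also known as Hic-5, rose 5.30-fold, and CSRP1, an actin-bundling LIM protein, rose 2.15-fold. NEXN, an actin-binding protein of muscle, was 5.47-fold lower, PPP1R12B, a targeting subunit of myosin phosphatase, 3.15-fold lower and PDLIM3, an actinin-binding protein, 2.36-fold lower. MRVI1 (now IRAG1), a mediator of relaxation by nitric oxide, was not well above background in pLB and was at least 2.38-fold lower there. DES, the muscle intermediate filament desmin, gave -0.23, -0.83 and -1.86 in pLUM and -0.63, -0.11 and -0.07 in pLB, which overlapped, and it was not called. With normexp the counts were 1 higher and 2 lower, as CSRP1 (0.78), PDLIM3 (-0.97) and MRVI1 (-0.89) lost their calls, and with the mean of a gene's probes 2 were lower, as PPP1R12B (-0.77) and PDLIM3 (-0.78) lost theirs. PDLIM3 was also not called with spike-in scaling (-0.98) or with slide as a block (-0.90).

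**Figure D3:**
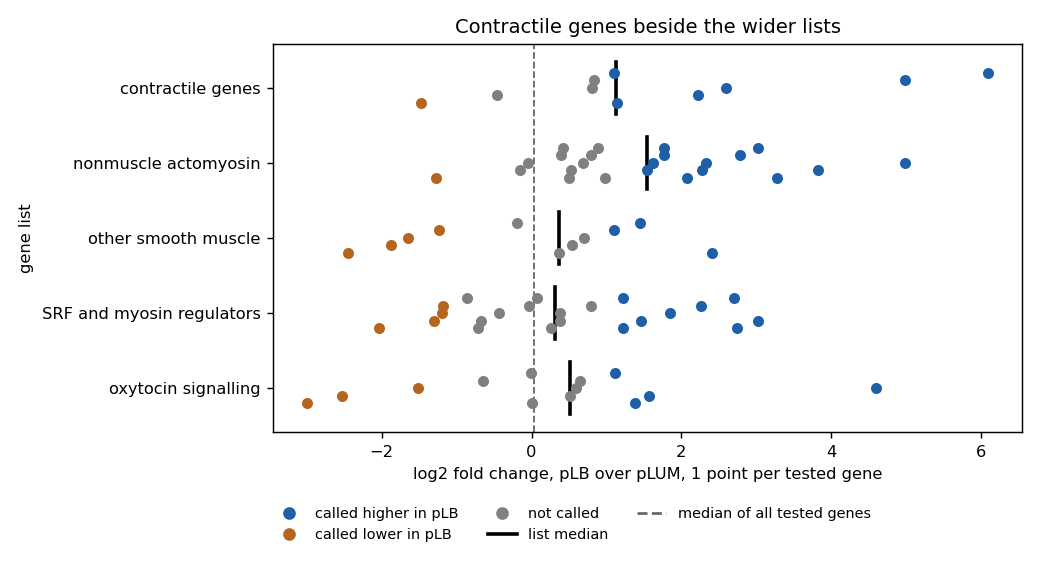
Log2 fold change of pLB over pLUM (x axis) of each tested gene in the contractile list and in the wider lists (y axis), with colors for genes called higher, called lower and not called, a black bar at each list's median and a dashed line at the median of all tested genes, 0.03. The medians of the contractile and nonmuscle lists, 1.12 and 1.54, lie to the right of those of the other lists.

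The factors that drive and regulate the contractile genes were examined next. SRF gave -7.30, -7.61 and -6.67 in pLUM and -7.58, -6.97 and -6.87 in pLB, and MYOCD, the myocardin gene, was likewise not well above background on any array. Both coactivators of the myocardin family that respond to actin were detected and moved in opposite directions. MKL1 (now MRTFA) was at -2.39, -2.60 and -1.73 in pLUM and -0.82, -0.76 and -1.46 in pLB, and was called 2.34-fold higher. MKL2 (now MRTFB) was at 2.67, 2.62 and 2.21 in pLUM and 1.62, 1.21 and 1.08 in pLB, and was called 2.29-fold lower. The 3 arrays of each line did not overlap for either. Normexp (0.74) and the mean of its probes (0.92) ended the call of MKL1, and the spike-in scaling that of MKL2 (-0.94), as did slide as a block (-0.88). A further probe for each was not called, at 0.62 for MKL1 and -0.92 for MKL2.

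Of the 24 regulators of SRF and of myosin phosphorylation listed, 22 were tested, and 8 were called higher (22.7% of all genes) and 4 lower (23.0% of all genes) in pLB, with a median log2 fold change of 0.32. FHL2, a LIM protein that binds SRF, was 8.15-fold higher, LIMK1, the kinase that blocks cofilin, 6.68-fold, RND3, a small GTPase that opposes stress fiber formation, 6.51-fold, and DIAPH1, a formin that polymerizes actin, 4.82-fold. A further FHL2 probe was not called (-0.25). RHOB, a small GTPase, fell by 2.04 on the log2 scale and ARHGEF12, a guanine nucleotide exchange factor, by 1.31. ARHGEF12 lost its call with normexp (-0.82). The kinases that keep myosin phosphorylated differed from each other: ROCK2 was called higher (1.85), and ROCK1 was not called (-0.67, limma adjusted p = 0.0209). RHOA (0.39) and RHOC (-0.04) overlapped between the lines and were not called.

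The oxytocin signalling list holds 15 genes, among them the hormone gene and a gene of its release as well as genes downstream of OXTR. Of these 13 were tested, 4 were called higher (22.7% of all genes) and 3 lower (23.0% of all genes) in pLB, and the median log2 fold change was 0.51. RGS2, which shuts off the G protein that OXTR uses, was at -4.22, -4.03 and -4.55 in pLUM and 0.52, 0.50 and -0.03 in pLB, a 24.2-fold increase (limma adjusted p = 4.53e-06). The receptors through which inositol trisphosphate releases calcium differed in direction. ITPR3 was 2.97-fold higher, whereas ITPR1 was 5.80-fold and ITPR2 2.85-fold lower. The call of ITPR2 was lost without pLUM replicate 1 or 2 or pLB replicate 2, where its log2 fold change was -1.33, -1.49 and -1.46, and by the methods' t-test. The phospholipases also differed, with PLCB2 2.61-fold higher and PLCB4 7.96-fold lower. PLCB1 was not called by its brightest probe (-0.01), whereas of its other 3 tested probes 2 were called lower, at -1.54 and -1.14. CACNA1C, the voltage-gated calcium channel of smooth muscle, was 2.17-fold higher, and lost its call with normexp (0.57), with slide as a block (0.84), and without pLUM replicate 3 (0.93) or pLB replicate 3 (0.97). The G protein genes GNAQ (0.51) and GNA11 (0.59) and the oxytocin gene OXT itself (0.64) were not called, and the vasopressin receptor AVPR1A and CD38, which acts in oxytocin release, were not well above background on any array.

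**Figure D4:**
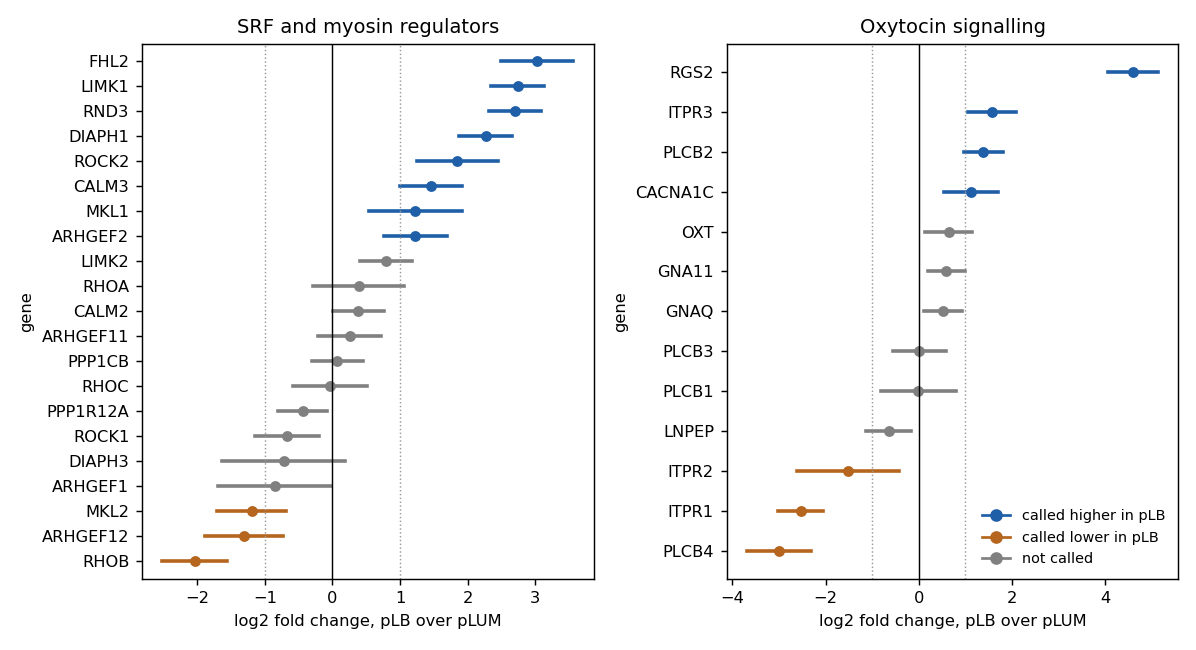
Fitted log2 fold change of pLB over pLUM (x axis) with 95% limma intervals (bars) for the tested regulators of SRF and of myosin phosphorylation (left, y axis, 1 gene not shown) and oxytocin signalling genes (right, y axis), with dotted lines at 2-fold and colors for the calls. FHL2 and RGS2 lie at the upper end, RHOB and PLCB4 at the lower end, and MKL1 and MKL2 lie on opposite sides.

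Promoters of 7 of the 10 members, in 11 windows of 250 bases before to 50 after the transcript start, are in the promoter table used here (RefSeq, GRCh38.p14), which has no window for TAGLN, MYL9 and MYH11. CArG boxes and the muscle CAT motif CATTCC were searched on both strands. Only the strict CArG form was searched, that is, CC, a core of A and T alone, and GG. A box with another base in its core would be missed, so windows without a match are not shown to lack such boxes. A CArG box was present in the windows of ACTG2 and MYLK and in 1.29% of all 35116 windows. The part from 150 bases before the start is shown for both, on the strand of the gene, with the CArG boxes in capitals.
ACTG2, chr2:73892858-73893007 (GRCh38.p14, plus strand): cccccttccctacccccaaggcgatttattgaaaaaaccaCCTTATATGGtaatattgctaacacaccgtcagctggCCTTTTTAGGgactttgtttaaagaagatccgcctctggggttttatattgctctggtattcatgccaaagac
MYLK, chr3:123620549-123620698 (GRCh38.p14, minus strand): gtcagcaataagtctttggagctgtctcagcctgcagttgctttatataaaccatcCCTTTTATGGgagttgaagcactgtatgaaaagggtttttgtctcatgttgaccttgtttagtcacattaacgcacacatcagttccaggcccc
In ACTG2 the boxes begin 110 and 73 bases before the start, and in MYLK 94 bases before it. ACTG2 was called higher in pLB and MYLK was not called. MYLK had 1 window, and which of its transcripts starts there was not examined. That start need not be the one of the full-length kinase transcript or of the RNA read by the MYLK probes. CATTCC, in either direction, was in 1 window each of MYLK and ACTA2 and in 14.0% of all windows, and overlapped no CArG box. These are matches of letters in a short window, and binding was not measured.

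The labelled cell types were compared with their markers. Of 16 basal and myoepithelial genes outside the contractile list, 14 were called higher in pLB (22.7% of all genes) and the other 2 were not called, with a median log2 fold change of 6.27 (5.38 with dim genes at their bound). KRT5 was at least 1752-fold and KRT14 at least 551-fold higher, and KRT17, which 1 of 3 pLUM arrays showed well above background, was called higher, with a log2 fold change of 9.47 and of 6.61 with normexp. KRT5, KRT14, TP63, COL17A1, NGFR and CAV1 were well above background on no pLUM array and passed the filter through the pLB arrays. The count of basal genes higher is thus not independent of the filter. KRT5 encodes CK5, for which the cells were stained in the sort, and its change is no independent finding. The lines had also been sorted on CD49f and CLD3 to separate luminobasal from luminal cells. The marker counts are thus not independent of how the lines were made. The list's summed signal, as a multiple of the array's 75th percentile, was 13.8 to 15.4 in pLUM and 423 to 480 in pLB. That of the contractile genes was 13.9 to 15.5 in pLUM and 24.5 to 45.7 in pLB. TPM2 alone gave 78.8% to 88.2% of it on each array, and without TPM2 it was 2.48 to 3.09 in pLUM and 4.91 to 5.74 in pLB. Levels cannot be compared between probes, so that these sums and shares, and those below, describe array signal and not amounts of RNA. MME, the myoepithelial surface marker CD10, was not called (0.40). Of 8 luminal genes 7 were called lower (23.0% of all genes), among them KRT8 (2.40-fold) and KRT19 (6.73-fold), while KRT18 was not called (-0.62), and the sum was 357 to 392 in pLUM and 102 to 108 in pLB. The probes of KRT8 disagreed: of the other 2 tested, one was called higher (1.89) and one lower (-2.57), and their mean was not called (-0.65).

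Other cells that express contractile genes were compared through markers too. Of 11 fibroblast genes, 3 were tested and 7, including COL3A1, PDGFRA, PDGFRB, DCN and LUM, were not well above background on any array. COL1A2 was at least 11.5-fold and THY1 at least 22.9-fold higher in pLB, COL1A1 was not called (-0.56), and the list's sum was 0.80 to 0.99 in pLUM and 1.28 to 1.83 in pLB. Of 8 pericyte genes, RGS5 and 3 others were not above background on any array, NOTCH3 was not called (0.92), MCAM, which 1 of 3 pLUM arrays showed well above background, was called higher (log2 fold change 5.05, 2.15 with normexp), and the sum was 12.5 to 14.0 in pLUM and 23.3 to 29.4 in pLB, of which NOTCH3 gave 95.6% to 98.4%. Without NOTCH3 the sum was 0.19 to 0.31 in pLUM and 0.86 to 1.04 in pLB. Of 12 striated muscle genes 6 were tested. The troponins TNNT1 and TNNT3, 2 genes, were called higher (22.7% of all genes), and 1, the troponin TNNC2, was called lower (23.0% of all genes). TNNT3 was well above background on no pLUM array and passed the filter through pLB. ACTC1, MYH1, MYH2 and CKM were not above background on any array. The sum was 12.8 to 13.7 in pLUM and 25.1 to 40.4 in pLB, of which TNNT1 gave 93.6% to 98.2%. Without TNNT1 it was 0.74 to 0.82 in pLUM and 0.455 to 0.758 in pLB. The endothelial sum was 0.078 to 0.11 in pLUM and 0.098 to 0.21 in pLB, with PECAM1, KDR and TEK not above background and CDH5 not called (0.51). VWF was called higher, at least 1.80-fold, but its log2 fold change was -0.25 with normexp, and it was not called with quantile normalization (0.99), a signal floor (0.90), slide as a block (0.86), or without pLUM replicate 3 (0.85) or pLB replicate 2 (0.91). The leukocyte sum was 0.47 to 0.59 in pLUM and 0.43 to 0.55 in pLB, where PTPRC (-0.47) and CD14 (0.56) were not called and CD3E was well above background on 1 array of each line. What part cells of these types had in the contractile genes' values was not tested.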

How the data were processed

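Triplicate sorts of pLUM and pLB were hybridized to 1-colour Agilent 4x44K arrays. The authors deposited Feature Extraction 10.10.1.1 output: an intensity per spot, corrected for background within the array but not normalized between arrays. Positions and names are those of the files (hg19), and promoters are from RefSeq (GRCh38.p14). From the deposited intensities, log2 values minus each array's 75th percentile were computed, without pseudocount. Outlier-flagged spots were dropped, 296 to 387 per array and none of a member, and replicate spots averaged. Probes well above background numbered 21285 to 22775 per array. limma 3.58.1 (R 4.3.3), tested on simulated data, compared pLB with pLUM, with calls at 2-fold and adjusted p under 0.05. A line well above background on no array gave a bound. Every member and probe was named, with the 4 called, non-overlapping genes of largest change each way per wider list, SRF and its coactivators, and the first 3 genes of each marker list; further genes were added as examples after their values were seen, and some genes are not reported here. Members and lists were chosen with earlier results of these data known. Alternatives changed the background correction, scaling, dim-probe filter, threshold, test, probe rule or block, or left out 1 array. The normexp correction added an offset of 50 intensity units, which by itself shrinks the fold changes of dim probes. The methods' t-test is Student's.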

Additional observations from a re-analysis of the deposited data

How the results depend on the processing

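Of 266 values of member probes under 19 alternatives, 244 kept their direction and call, 13 lost the call, 8 gained one and 1 reversed, and of 810 values of other named genes 770 kept both, 35 lost the call, 4 gained one and 1 reversed. With normexp, 4 contractile probes were called higher and the median log2 fold change of the contractile genes was 0.58, 1 other smooth muscle gene was higher and 2 lower, 5 regulators of SRF and myosin phosphorylation were higher and 2 lower, and the reversed values were -0.20 for MYH11 and -0.25 for VWF. Calls kept with normexp but at smaller log2 fold changes were 3.10 for TPM4, 2.74 for RGS2, 1.55 for TGFB1I1, -1.41 for NEXN, 2.15 for MCAM and 1.33 for COL1A2. With spike-in scaling, 0 nonmuscle actomyosin genes and 2 regulators were called lower in limma, and 0 nonmuscle genes at an unadjusted p under 0.05 either. With probes required on all 6 arrays, 2 of the 6 contractile genes tested and 3 contractile probes were called higher, as dim genes were then not tested. Without a fold threshold, 2 contractile genes were lower (TAGLN and OXTR) and 7 oxytocin signalling genes higher. With the mean of a gene's probes, 2 other smooth muscle genes were lower. With slide as a block, which sets pLB replicate 1 against the 3 pLUM arrays of its slide, 0 nonmuscle actomyosin genes were lower in limma, also before adjustment, and 4 contractile genes higher. The cause of these changes was not tested. Leaving out 1 array at a time gave 4 to 6 contractile genes higher and 1 lower, and a median of 0.78 to 1.38. Before adjustment the methods' t-test at its threshold called 6 member probes higher and 2 lower, and after Benjamini-Hochberg adjustment 5 and 2. The labels do not say whether replicate numbers pair the samples. Deviations of same-numbered arrays from their line's mean correlated at -0.27, -0.09 and -0.22. Deviations from a mean of 3 arrays are tied to each other, so that these values cannot decide whether the sorts were paired. With the replicate block 6 contractile genes were higher, 1 was lower, the median was 1.12 and among named genes ITPR2 lost its call. The number of arrays limits the precision, and signals near background limit ACTA2, MYH11 and the bounds of ACTG2 and CNN1.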
